A study of Homo sapiens with 9 samples.

Results

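H295R cells labelled as overexpressing SGPL1 (OE) were compared with H295R cells labelled as SGPL1 knockout (KO), gene by gene, on polyadenylated RNA. The comparison takes the 3 libraries titled OE and the 3 titled KO, 6 of the 9 libraries of the series, and every difference is given as OE minus KO. The 3 libraries of cells with no stated change (WT) entered the statistical fit and serve as a reference for levels. H295R cells come from a human adrenocortical carcinoma and secrete adrenal steroids in culture. All 3 groups were grown without treatment in the same medium in 6-well plates, and total RNA was purified on RNeasy columns, selected for poly-A and copied from random primers. The design text calls the libraries biological replicates. The sources used here do not give the edit in the KO cells, the construct in the OE cells, or whether either is 1 clone or a pool. The p-values therefore rest only on the spread among these libraries, which may be technical in part.

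SGPL1 encodes sphingosine-1-phosphate lyase, an enzyme of the endoplasmic reticulum that cleaves sphingosine-1-phosphate (S1P) into phosphoethanolamine and a fatty aldehyde, the only route by which sphingolipids leave their pathway for good. S1P also signals through a family of G protein-coupled receptors at the cell surface. In the adrenal cortex sphingolipids take part in the control of steroid synthesis, and inherited loss of SGPL1 causes adrenal insufficiency. The series' title concerns elevated SGPL1 expression and metabolic rate in adrenocortical carcinoma.

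SGPL1 (ENSG00000166224, chr10:70815948-70881184, GRCh38) was measured in CPM, read counts per 1e+06 counts of the scaled library total. It was at 47.2, 43.9 and 53.8 CPM in KO replicates 1 to 3, at 98.1, 81.3 and 101 CPM in OE, and at 102, 83.4 and 98.1 CPM in WT. The KO and OE libraries did not overlap, while the OE libraries lay within the range of WT or just below it. The log2 fold change of OE over KO was 0.95 ± 0.14 (standard error; edgeR adjusted p = 6.7e-05), a ratio of 1.94. The OE label thus goes with more SGPL1 RNA than KO but not with more than WT. The counts cover the whole gene, so transcripts disrupted by an edit are counted too, and they do not show how much of the RNA codes for a working enzyme. In what follows OE stands for the libraries labelled OE.

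The 10 markers of adrenal cortex each had at least 10 counts in a library. Their summed level was 7396 to 9125 CPM in KO, 4903 to 5205 CPM in OE and 4574 to 5014 CPM in WT, all on unscaled totals. Most of that sum was DLK1, at a mean of 5796 CPM in KO and 3037 CPM in OE on scaled totals. Of the same set SULT2A1 also fell and HSD3B2 rose, so the sum does not speak for the class. Of 7 chromaffin and neural markers 3 had at least 10 counts in a library, and DBH, PNMT and TH had none in any. Their sum was 41.9 to 52.0 CPM in KO, 69.7 to 81.7 CPM in OE and 96.0 to 104.3 CPM in WT. Most of it was SYP, a protein of secretory vesicles, at 34.6, 28.4 and 26.7 CPM in KO and at 62.0, 77.5 and 55.5 CPM in OE (1.12 ± 0.16, edgeR adjusted p = 6.39e-05). Of 5 epithelial markers only 1, EPCAM, had at least 10 counts in a library. They summed to between 11 and 13.4 CPM in KO and 27.3 and 29 CPM in OE, with WT at 25.1 to 29.5 CPM. CLDN4, an epithelial gene outside this set, went the other way (-1.33 ± 0.44, edgeR adjusted p = 0.0246). It lost that call without KO replicate 1 or 3 or OE replicate 1 or 2. Fibroblast markers summed to between 10.7 and 28.7 CPM over all libraries. The part of these markers in the results below was not tested. Leukocyte markers summed to at most 3.4 and endothelial markers to at most 0.6 CPM in any library. Library totals ran from 8006873 to 10895080 counts. OE replicate 2 stood apart from the other libraries on the first principal component of log2 CPM, at -54.1 where the other OE libraries were at -31.0 and -35.1 and the KO libraries at 47.7 to 59.6. Values without it are given where they differ in a way that matters.

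Of 14150 genes tested, 2692 were higher (19.0%) and 2920 lower (20.6%) in OE than in KO at an adjusted p under 0.05 in edgeR's quasi-likelihood test, 39.7% in all. Of these, 887 and 1036 changed at least 2-fold. The OE libraries all lay above or all lay below the KO libraries in 7319 genes (51.7%), 3585 above and 3734 below. The median of all genes was -0.004. So the background for any list of genes is high: about 1 gene in 5 is called in each direction, and a list is read against that.

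A trend on gene length ran through the comparison. Length here is the column of that name in the deposited files, the number of bases in the union of a gene's annotated exons. The mean of the 3 group means was subtracted from each gene's log2 CPM, and the slope of the remainder on log2 length was found in every library. The slope was 0.042, 0.085 and 0.129 in KO, -0.075, -0.204 and -0.083 in OE, and 0.056, -0.053 and 0.103 in WT. All OE slopes were below all KO slopes. The mean difference was -0.206 (exact permutation test, two-sided, p = 0.1, the smallest that 3 against 3 libraries can give). With the genes cut into 5 classes of 2830 by length, the median log2 fold change fell from 0.34 in the shortest class (median 1777 bases) through 0.16, -0.003 and -0.16 to -0.38 in the longest (10974 bases). The shortest class held 931 higher and 168 lower genes, and the longest held 202 higher and 1205 lower.

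**Figure D1:**
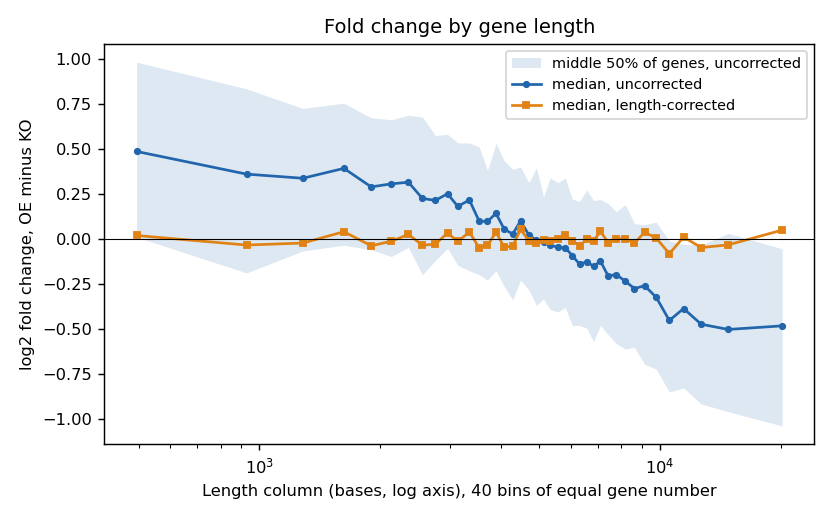
Median log2 fold change (OE minus KO, vertical axis) in 40 bins of equal gene number along the Length column (horizontal log axis, bases), before (blue circles, with the middle 50% of genes shaded) and after (orange squares) the correction for length. The uncorrected medians go from above 0 in short genes to below 0 in long genes, and the corrected medians stay close to 0.

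A second fit therefore removed, for each library, a smooth curve of relative log2 CPM on log2 length before the same edgeR test. The correction takes away any change of the cells that follows length together with any technical trend, and these cannot be told apart. In the length-corrected fit 2709 genes were higher (19.1%) and 2636 lower (18.6%), 37.8% in all, and the medians of the 5 length classes lay between -0.008 and -0.002. Both fits called 4220 genes with the same sign, 2052 higher and 2168 lower, and called 0 genes with opposite signs. A further 1392 genes were called only without the correction (640 higher, 752 lower) and 1125 only with it (657 higher, 468 lower). The number called is thus similar in both fits, but which genes are called differs. Gene lists and the genes that lead them are given from both fits below, first uncorrected and then length-corrected. Values of other genes are uncorrected unless stated. An alternative chosen after seeing the data used the length of a single GENCODE transcript per gene in the correction, and is called transcript length below.

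The largest differences were genes nearly silent on one side. RAB31 (ENSG00000168461, chr18:9708275-9862551), a small GTPase of vesicle traffic, had 0 counts in all KO libraries and 24.96, 14.8 and 21.6 CPM in OE, at least 61.7-fold higher against a floor of 3 counts per library. SH3TC1 was at least 29-fold, MARVELD2, a tight junction protein, at least 26-fold, and COX7B2, related to a cytochrome c oxidase subunit, at least 17.7-fold higher in OE, again with 0 counts in KO. CYP27A1 (ENSG00000135929, chr2:218781749-218815293), the mitochondrial sterol 27-hydroxylase, had 0.234, 0 and 0 CPM in KO and 32.0, 41.8 and 28.9 CPM in OE, a ratio of 453 with a 95% counting interval of 125 to 3750. TPD52 had a ratio of 161 (28.5 to 6410). These floors and intervals cover counting error only. All of these genes were also expressed in WT: RAB31 at 30.2, 24.5 and 17.4 CPM and CYP27A1 at 29.9, 29.96 and 20.2 CPM.

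The other large rises had low but measurable levels in KO. VCX, a germline gene of the X chromosome, was at 1.64, 0.973 and 0.856 CPM in KO and at 33.97, 61.7 and 47.8 CPM in OE (log2 fold change 5.37 ± 0.30, edgeR adjusted p = 3.32e-09; length-corrected 4.97). It belongs to a family of near-identical copies, so its counts are uncertain. The transcription cofactor EYA2 rose by 5.23 ± 0.47, the desmosomal cadherin DSG2 by 5.18 ± 0.47, the glycosyltransferase GALNT12 by 5.09 ± 0.40, and the cation channel TRPV2 by 5.01 ± 0.34. In each of these the KO libraries all lay below the OE libraries, and each kept its call with the length correction. CD44, a hyaluronan receptor that lies below the level set for this group, had 0 counts in KO and was at least 12.8-fold higher in OE.

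The largest falls were genes expressed in KO and nearly absent from OE. CILP2 (ENSG00000160161, chr19:19538248-19546659), a protein of cartilage matrix, was at 72.2, 71.1 and 57.2 CPM in KO and at 0.440, 0.277 and 0.188 CPM in OE (-7.75 ± 0.34, edgeR adjusted p = 1.87e-10; length-corrected -7.80). KCNT2 (ENSG00000162687, chr1:196225779-196609225), a sodium-activated potassium channel, was at 5.72, 11.4 and 15.9 CPM in KO and had 2 counts over the OE libraries, a ratio of 150 (41.3 to 1250). DMTN, a protein of the membrane skeleton, had 2 counts in OE as well and a ratio of 107 (29.2 to 887). NAXD, which repairs hydrated NADH, fell by 6.54 ± 0.38, and the complement gene C7 had a value of -5.53 ± 0.42 on the log2 scale. The other falls were LMOD1 (-5.14), PLA2G3 (-4.98), SLC26A7 (-4.41), LOXL3 (-4.40) and UTS2 (-4.29). EGLN3, a prolyl hydroxylase that marks hypoxia-inducible factor for degradation, was at 33.6, 37.6 and 25.7 CPM in KO and at 1.54, 2.21 and 0.0941 CPM in OE (-4.76 ± 0.42).

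For most of the 24 genes with the largest differences the WT level lay on the side of OE. On the log2 CPM scale the WT mean was nearer to the OE mean than to the KO mean in 12 of the 12 rises and in 11 of the 12 falls, the exception being SLC26A7. Among all called genes that changed at least 2-fold, the WT mean was nearer to OE in 646 of 887 higher genes (72.8%) and in 482 of 1036 lower ones (46.5%). Over all called genes it was nearer to OE in 48.3% of the higher and 46.5% of the lower. These positions are a description and were not tested.

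**Figure D2:**
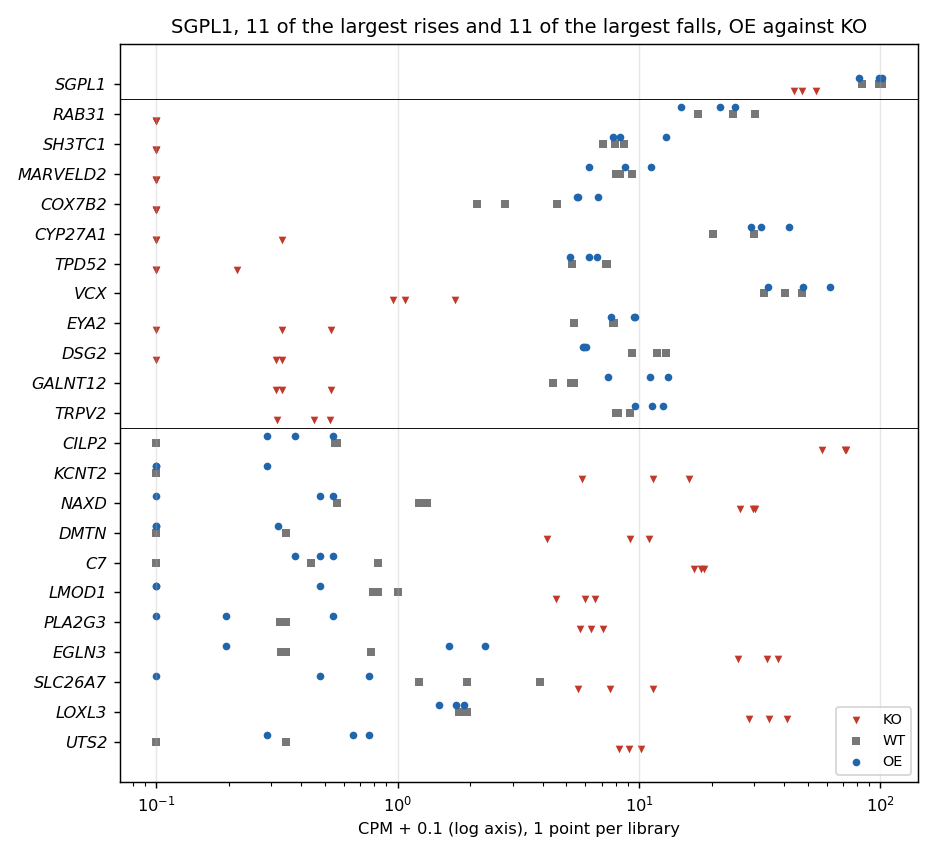
CPM plus 0.1 (horizontal log axis) in each library for SGPL1 and for 11 of the 12 largest rises and 11 of the 12 largest falls of OE against KO (rows), with KO as red triangles, WT as grey squares and OE as blue circles. Points at 0.1 are libraries with 0 counts, and the OE and WT points lie together on the other side from KO in most rows.

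In S1P turnover and transport, 3 of 16 genes rose and 1 fell (median 0.07), and after the length correction 5 rose and 2 fell with a median of 0.42. SGPL1 is one of the risers, and it was the only one called without KO replicate 2, KO replicate 3 or OE replicate 2. ABCC1, an exporter that can carry S1P out of cells, was at 74.8, 74.5 and 79.8 CPM in KO and at 42.7, 31.1 and 36.2 CPM in OE (-1.05 ± 0.18, edgeR adjusted p = 0.000268; length-corrected -0.87). The 2 groups were well apart, and WT was at 71.8, 47.2 and 81.9 CPM. Of the receptors, S1PR2 rose by 0.99 ± 0.32 from a mean of 2.36 to 4.73 CPM (adjusted p = 0.0214) and S1PR5 by 0.75 ± 0.24 (adjusted p = 0.0208). S1PR2 lost its call without any 1 of the KO libraries or OE replicate 2. S1PR5 lost it without KO replicate 2 or 3 or OE replicate 2 or 3, and in the length-corrected fit (adjusted p = 0.0794). S1PR3 had 457, 502 and 547 CPM in KO and 554, 376 and 557 CPM in OE, which overlap. Its log2 fold change was -0.02 uncorrected (adjusted p = 0.936) and 0.44 ± 0.10 with the correction (adjusted p = 0.00251), so the call for this 13702-base gene rests on the treatment of length. SPHK1, a kinase that makes S1P, had a log2 fold change of 0.92 ± 0.47 (adjusted p = 0.133), and the lipid phosphatase PLPP1 of -0.37 ± 0.18 (adjusted p = 0.112). APOM, a plasma carrier of S1P, was at 0.467, 0.648 and 0.107 CPM in KO and at 0.660, 4.01 and 0.658 CPM in OE, with 2.02 ± 0.82 on the log2 scale (adjusted p = 0.0608). OE replicate 2 carried that value, which was 0.70 without it (adjusted p = 0.568).

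Upstream, 6 of 34 genes of ceramide and sphingolipid synthesis rose and 6 fell (median -0.05 in both fits), close to the background share. With the correction 5 rose and 6 fell, and the falls dropped to 3 without KO replicate 2, KO replicate 3 or OE replicate 2 and to 2 without OE replicate 3. The ceramide synthase CERS5 rose by 0.62 ± 0.14 (length-corrected 0.76) while CERS6 fell by 0.82 ± 0.21 (length-corrected -0.68, but not called when transcript length was used). SPTLC2, a subunit of the enzyme that starts the pathway, fell by 0.60 ± 0.13, and UGT8, which makes galactosylceramide, was at 1.75, 3.24 and 3.53 CPM in KO and at 0, 0 and 0.941 CPM in OE. SPTLC2 did not keep its call in the length-corrected fit (-0.31, adjusted p = 0.0536). CERT1, a ceramide carrier of 18075 bases, had -0.52 ± 0.13 uncorrected and 0.01 corrected. Downstream of the lyase, phosphoethanolamine can enter phosphatidylethanolamine, and of 10 genes of that route 2 rose and 2 fell, or 2 and 1 with the correction. The uncorrected 2 rises became 1 without KO replicate 3 or OE replicate 2, the 2 falls became 1 without KO replicate 2, KO replicate 3 or OE replicate 2, and the corrected rises became 1 without KO replicate 2 or 3. PEMT, which methylates phosphatidylethanolamine, rose from a mean of 9.54 to 19.2 CPM (1.01 ± 0.19; length-corrected 0.66) and PCYT2, which activates phosphoethanolamine with CTP, fell by 0.70 ± 0.14.

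Genes of steroid synthesis changed in both directions. Of 27 genes of cholesterol uptake and steroid synthesis, 4 rose and 9 fell (7 and 9 with the correction, 3 and 7 with the transcript length), with medians of 0.05 and 0.04 uncorrected and corrected. HSD3B2 (ENSG00000203859, chr1:119414931-119423035), which turns pregnenolone into progesterone, was at 25.1, 22.5 and 28.6 CPM in KO and at 106, 96.0 and 107 CPM in OE, which is 2.02 ± 0.14 on the log2 scale (edgeR adjusted p = 5.02e-08; length-corrected 1.73). CYP21A2 (ENSG00000231852, chr6:32038327-32041644), the 21-hydroxylase, was at 132, 115 and 96.0 CPM in KO and at 318, 351 and 297 CPM in OE (1.497 ± 0.131; length-corrected 1.26). WT lay below KO for HSD3B2, at 13.1, 14.7 and 13.6 CPM, and overlapped KO for CYP21A2. Both genes have close copies in the genome whose shared reads were left out, so their levels are uncertain.

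CYP19A1 (ENSG00000137869, chr15:51208057-51338601), the aromatase that makes estrogens, went the other way, with 248, 238 and 287 CPM in KO and 44.9, 40.4 and 45.3 CPM in OE (-2.56 ± 0.13, edgeR adjusted p = 1.34e-09; length-corrected -2.32). WT was at 18.9, 21.6 and 23.0 CPM, below both. The gene lies in a stretch of chromosome 15 where neighbouring genes were lower in OE, with a median of -0.46. SULT2A1, which sulfates dehydroepiandrosterone, was at 356, 347 and 375 CPM in KO and at 160, 148 and 162 CPM in OE (-1.20 ± 0.11; length-corrected -1.52). The cholesterol carrier STARD4 fell by 0.82 ± 0.15, and SRD5A3 rose by 1.49 ± 0.22. H6PD, which supplies NADPH to a cortisol enzyme, fell by 0.75 ± 0.15 (length-corrected -0.44), a call that was lost with transcript length in the correction.

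Regulators and markers of the adrenal cortex were also split, with 9 of 32 higher and 11 lower (9 and 12 with the correction; medians 0.02 and -0.05). Without KO replicate 3 the 12 became 7. DLK1, a marker of adrenocortical progenitors and a Notch-like membrane protein, was at 6303, 6157 and 4927 CPM in KO and at 2961, 3274 and 2877 CPM in OE, a fall of 0.93 ± 0.11 (edgeR adjusted p = 1.02e-05). NR0B1, a nuclear receptor that restrains steroidogenic transcription, fell by 1.37 ± 0.24, from a mean of 15.3 to 5.88 CPM. NR4A1, a transcription factor of the trophic hormone response, fell by 0.89 ± 0.16, and the calcium channel CACNA1G by 1.98 ± 0.24. AGTR1, the receptor of angiotensin II, rose by 0.74 ± 0.12, from 140 to 146 CPM in the KO libraries to 202 to 266 CPM in OE.

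The imprinted pair IGF2 and H19 on chromosome 11 moved in opposite directions. IGF2 (ENSG00000167244, chr11:2129112-2141238), a fetal growth factor, was at 110, 187 and 142 CPM in KO and at 33.0, 11.3 and 16.5 CPM in OE (-2.84 ± 0.41, edgeR adjusted p = 6.34e-05; length-corrected -2.74). H19 (ENSG00000130600, chr11:1995176-2001470), the non-coding RNA next to it, was at 0.350, 0.216 and 0 CPM in KO and at 2.86, 3.46 and 3.67 CPM in OE (4.07 ± 0.61; length-corrected 3.86). WT spread from 19.7 to 83.5 CPM for IGF2, overlapping OE, and from 1.71 to 2.60 CPM for H19, between KO and OE. Of the 17 genes of the IGF axis 4 were higher and 10 lower, or 4 and 9 with the correction, with medians of -0.71 and -0.33. IGFBP7, a secreted IGF-binding protein, was at 158, 161 and 144 CPM in KO and at 22.2, 21.99 and 20.4 CPM in OE (-2.84 ± 0.14; length-corrected -3.16), with WT at 24.4 to 30.1 CPM. The receptor IGF1R fell by 1.45 ± 0.18, STC1 by 1.98 ± 0.26 and MEG3, the non-coding RNA of the DLK1 domain, by 1.08 ± 0.12 (length-corrected -0.51).

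Genes of cholesterol biosynthesis were mostly lower in OE. Of 28 tested, 3 were higher and 15 lower, with a median of -0.34, and with the length correction 2 and 15, with a median of -0.32. HMGCS1, which makes the precursor HMG-CoA, was at 578, 625 and 775 CPM in KO and at 384, 289 and 369 CPM in OE (-0.92 ± 0.13, edgeR adjusted p = 6e-05; length-corrected -0.79). The groups were apart, and WT was at 332 to 378 CPM. CYP51A1 fell by 1.55 ± 0.27 and SREBF2, the transcription factor that drives this pathway, by 0.91 ± 0.12. TM7SF2, a sterol reductase, had a log2 fold change of -4.18 ± 0.50. SQLE, the squalene epoxidase, rose instead, from 38.3, 39.7 and 36.8 CPM in KO to 113, 80.1 and 98.8 CPM in OE (1.35 ± 0.14), and so did PMVK (1.29 ± 0.20). In all 15 of the lower genes the WT mean was nearer to OE than to KO, and in 8 of them it lay beyond OE.

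Of 18 genes of cholesterol storage and efflux 3 were higher and 7 lower, or 3 and 9 with the correction (medians -0.31 and -0.34). The 7 became 4 without KO replicate 3 or OE replicate 3, and the 9 became 5 without KO replicate 2, OE replicate 2 or OE replicate 3. SOAT1, which esterifies cholesterol for storage, was at 1068, 1181 and 1333 CPM in KO and at 393, 351 and 414 CPM in OE (-1.63 ± 0.11, edgeR adjusted p = 4.66e-08; length-corrected -1.47), close to WT at 322 to 354 CPM. It lies in a stretch of chromosome 1 with a median shift of -0.71. APOE fell by 2.94 ± 0.34, the hormone-sensitive lipase LIPE by 0.92 ± 0.16 and the endosomal cholesterol carrier NPC1 by 0.69 ± 0.13 (length-corrected -0.37). In fatty acid synthesis 15 of 23 genes were lower and 2 higher (13 and 3 with the correction, 9 and 3 with the transcript length; medians -0.46, -0.40 and -0.24). FASN, the fatty acid synthase, was at 306, 310 and 251 CPM in KO and at 132, 93.6 and 102 CPM in OE (-1.40 ± 0.20; length-corrected -1.11), and the desaturases SCD, FADS1 and FADS2 fell by 0.93, 0.91 and 0.76 (length-corrected -0.56 for FADS1 and -0.40 for FADS2).

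Letters of 3 factor motifs, chosen after seeing the data, were searched in the 250 bases before the annotated start of these steroid, cholesterol, fatty acid and adrenal genes, on both strands. The motifs were AAGGTCA for SF-1, the receptor that drives steroidogenic genes (in 2.3% of the windows of all tested genes), TGACGTCA for the cAMP response element (3.0%), and TCACNCCAC for the sterol response element (0.8%). The windows come from RefSeq (GRCh38.p14), which gave 1 for 10618 of the 14150 genes tested. Among the genes named above, 4 windows held a match, shown with the motif in capitals and up to 16 bases on each side.
CYP21A2 (chr6:32038165-32038202, SF-1 letters): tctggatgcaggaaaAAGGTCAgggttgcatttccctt
H6PD (chr1:9239749-9239787, SF-1 letters on the other strand): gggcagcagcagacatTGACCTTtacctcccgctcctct
SREBF2 (chr22:41832956-41832996, sterol element letters): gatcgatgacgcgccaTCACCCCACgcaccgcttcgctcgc
FADS1 (chr11:61817042-61817081, cAMP element letters; gene on the minus strand): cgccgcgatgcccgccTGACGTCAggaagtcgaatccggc
CYP21A2 rose and the other 3 fell, and none of the 22 windows of cholesterol biosynthesis other than that of SREBF2 held the sterol letters. These are matches of letters in a short window and say nothing of binding.

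Transcripts of cytosolic ribosomal proteins were higher in OE. Of 77 cytosolic ribosomal protein genes 75 rose and none fell, with a median of 0.95, and with the length correction 74 rose with a median of 0.71. The largest uncorrected log2 fold change was 1.47 (RPL10). RPS27 was at 300, 321 and 304 CPM in KO and at 646, 796 and 723 CPM in OE (1.23 ± 0.12, edgeR adjusted p = 1.7e-06; length-corrected 0.84). Together these genes took 4.88%, 4.55% and 4.08% of counts in KO, 7.28%, 9.33% and 7.28% in OE and 5.14% to 6.77% in WT. OE replicate 2 was the highest, and without it 74 of the 77 were still called higher, with a median of 0.79. WT lay between KO and OE in 74 of the 75 risers, nearer to KO in 64 of them. Many processed copies of these genes exist, so their counts are uncertain in level.

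The size of this shift depends on how length is measured. The exon union in the files had a median of 2930 bases for these genes, against 1017 bases for a single GENCODE transcript per gene (all genes 5020 and 2999). With the transcript length in the correction 73 rose and none fell, with a median of 0.54. Translation factors rose in 16 of 40 genes and fell in 7 (17 and 6 with the correction, the 17 becoming 11 without KO replicate 2; medians 0.13 and 0.19). The elongation factor EEF1A1 was at 6707, 6334 and 5808 CPM in KO and at 10190, 12510 and 10380 CPM in OE (0.81 ± 0.11; length-corrected 0.85), TPT1 rose by 1.06 ± 0.15 and EIF3K by 1.19 ± 0.17. EIF2AK4, a kinase that slows initiation when amino acids are short, fell by 0.81 ± 0.13 (length-corrected -0.39). Of 20 snoRNA host genes, whose introns hold small nucleolar RNAs, 10 rose and none fell (9 and 0 with the correction; medians 0.59 and 0.70; with the transcript length 6 and 1, median 0.33). SNHG5 was at 60.9, 72.7 and 57.0 CPM in KO and at 115, 152 and 99.1 CPM in OE, and ZFAS1 rose by 1.36 ± 0.26.

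Starts were also searched after seeing the data, for a known feature. Many mRNAs of the translation machinery begin with a C followed by a run of pyrimidines, a feature through which mTOR controls their translation. The 30 bases around the annotated start, 15 before and 15 from it, are shown for 12 of the members with the smallest adjusted p in these lists, with the pyrimidines that follow the start without a break in capitals. The windows are from RefSeq (GRCh38.p14).
RPS27 (chr1:153990747-153990776): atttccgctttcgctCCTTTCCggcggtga
RPL31 (chr2:101002274-101002303): acaatccttcgcgctCTTCCTTTCCaactt
RPL10 (chrX:154398050-154398079): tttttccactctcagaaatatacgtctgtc
RPL6 (chr12:112411428-112411457, minus strand): tatttgtatcctcagTgaatcagaaccaga
EEF1A1 (chr6:73521018-73521047, minus strand): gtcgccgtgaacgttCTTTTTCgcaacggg
TPT1 (chr13:45341169-45341198, minus strand): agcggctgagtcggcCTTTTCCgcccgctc
EIF3K (chr19:38619173-38619202): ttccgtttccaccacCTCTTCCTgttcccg
EEF1B2 (chr2:206159594-206159623): gccggaagtggccccagcctcgaggccggg
EIF2AK4 (chr15:39934100-39934129): ccatagcccgtccccagcgcggagccccgc
SNHG7 (chr9:136728170-136728199, minus strand): gcttcccttctcgtcCTCTgcgtgcgccgg
SNHG5 (chr6:85678719-85678748, minus strand): gctgcgcacttcggtCTTTTacgtcggcct
ZFAS1 (chr20:49278627-49278656): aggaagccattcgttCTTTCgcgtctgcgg
RPS27, RPL31, EEF1A1, TPT1, EIF3K, SNHG5 and ZFAS1 start with C and at least 4 more pyrimidines at this start, 7 of the 12 shown. RPL10, RPL6, EEF1B2, EIF2AK4 and SNHG7 do not at this start, SNHG7 having C and 3 more. Their other starts are not shown, so they may hold the feature there. EIF2AK4 fell and the other 11 rose, and a link to the feature was not tested.

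How common the feature is depends on which start is taken. With the first RefSeq start per gene, 41 of the 61 ribosomal protein genes that have a window held it (67.2%), against 5.3% of the windows of all tested genes. The 61 genes are 79.2% of the list, short of the 80% taken as enough, so this share is void as a check of the list. With the start of 1 GENCODE release 29 transcript per gene, which covers all 77, it was 15 genes (19.5%) against 2.8% of all genes. Outside the ribosomal protein, translation factor and snoRNA host lists, 377 genes had such a GENCODE start, and 18.8% of them were higher and 24.1% lower in OE, against 18.5% and 20.8% of the 13556 genes with another start. The GENCODE start found the feature in a smaller share of ribosomal protein genes than the RefSeq start, so these classes may be mixed. They cannot show whether the feature goes with the change, which was not tested.

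**Figure D3:**
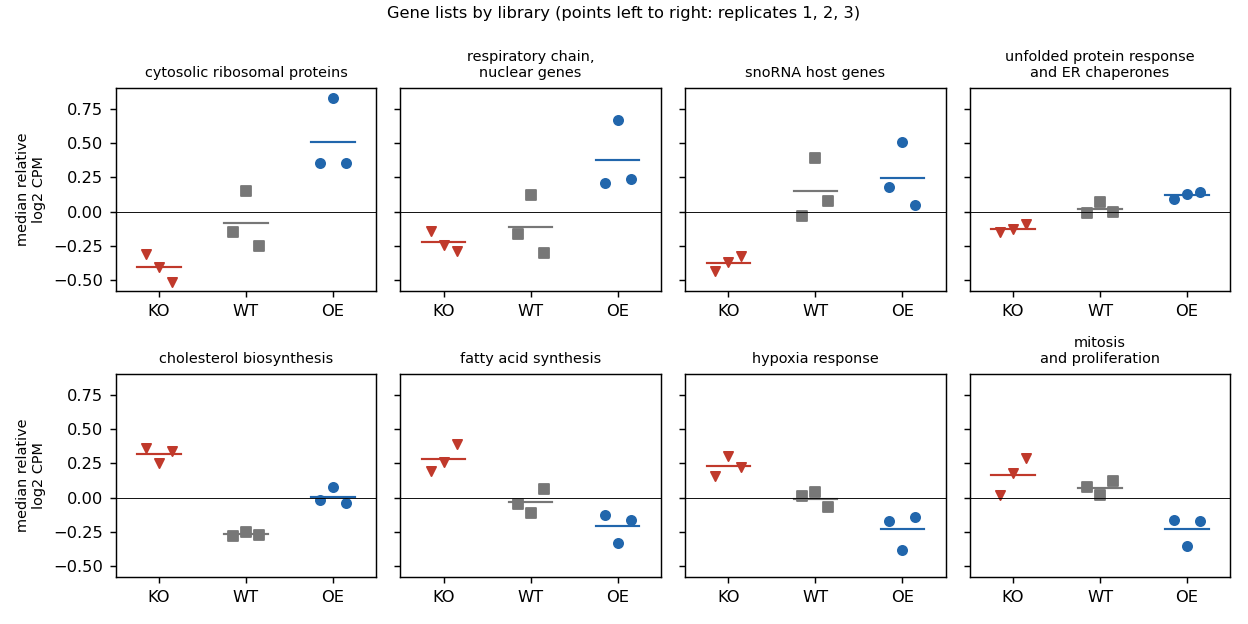
Median over the tested members of 8 gene lists of log2 CPM relative to the mean of the 3 groups (vertical axis), for each library of KO (red triangles), WT (grey squares) and OE (blue circles), with the group mean as a bar. Ribosomal protein and respiratory chain genes are higher in OE than in KO, most of all in OE replicate 2, and cholesterol and fatty acid synthesis are highest in KO.

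Respiratory chain genes were higher in OE, both those of the nucleus and those of the mitochondrial genome. Of 77 nuclear genes 62 rose and 1 fell, with a median of 0.62. NDUFA8, a subunit of complex I, was at 124, 109 and 103 CPM in KO and at 197, 270 and 207 CPM in OE (1.00 ± 0.14, edgeR adjusted p = 4.8e-05; length-corrected 0.57), with WT at 140 to 178 CPM. NDUFB4 rose by 0.75 ± 0.12, NDUFS4 by 0.77 ± 0.13 and ATP5MK, a subunit of ATP synthase, by 0.91 ± 0.15 (length-corrected 0.41, 0.39 and 0.49). With the length correction 49 rose and none fell, and the median was 0.38. It was 0.28 with the transcript length, where 42 rose. Without OE replicate 2 the uncorrected count was 48 with a median of 0.48, and the length-corrected count was 40. These are short genes, with a median length of 2324 bases.

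Of the 13 mRNAs encoded in mitochondria 8 rose and none fell (median 0.63), and 4 rose with the correction (median 0.26), or 7 without OE replicate 2. With the correction 8 of the 13 were above 0 and the lowest was at -0.53. None fell in that fit, but 2 did without KO replicate 1 and 2 without OE replicate 1. MT-ND2, a subunit of complex I, was at 242, 265 and 281 CPM in KO and at 640, 597 and 555 CPM in OE (1.19 ± 0.11, edgeR adjusted p = 8.27e-07; length-corrected 0.80). MT-ND3 rose by 1.25 ± 0.12 (length-corrected 0.73) and MT-CO3, a subunit of cytochrome c oxidase, by 0.87 ± 0.11 (length-corrected 0.44). MT-ATP6 rose by 0.70 ± 0.11 uncorrected and had 0.26 with the correction (adjusted p = 0.0945). Here WT did not lie between the groups: in 8 of the 8 risers the WT mean was below KO, as MT-ND2 at 206 to 238 CPM shows. Nuclear copies of mitochondrial sequence take reads from these genes, so their levels are uncertain. In the citric acid cycle and fatty acid oxidation 12 of 46 genes rose and 6 fell (11 and 7 with the correction; medians 0.01 and 0.03). With the transcript length the split turned, to 6 rises and 11 falls with a median of -0.02. The 11 rises became 6 without KO replicate 1 and 7 without KO replicate 2 or 3, and the 7 falls became 4 without KO replicate 2. MDH2 rose by 0.85 ± 0.13 and IDH3A fell by 0.99 ± 0.16.

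Glycolysis leaned the other way. Of 31 genes of glucose uptake and glycolysis 5 rose and 11 fell (6 and 11 with the correction), with medians of -0.23 and -0.03. HK2, a hexokinase, was at 23.6, 27.5 and 27.5 CPM in KO and at 7.92, 5.95 and 8.37 CPM in OE (-1.81 ± 0.19, edgeR adjusted p = 3.16e-06; length-corrected -1.73), with WT at 8.07 to 9.72 CPM. The glucose carriers SLC2A3 and SLC2A1 fell by 1.07 ± 0.14 and 0.60 ± 0.11, ALDOC by 1.06 ± 0.15, and the pyruvate dehydrogenase kinases PDK3, PDK1 and PDK4 by 0.94, 0.95 and 0.73 (length-corrected -0.48 for PDK3 and -0.46 for PDK1), PDK1 losing its call with transcript length. PFKL, the liver phosphofructokinase, rose by 0.75 ± 0.14. In 10 of the 11 lower genes the WT mean was nearer to OE. Hypoxia response genes, several of them shared with this group, had 13 lower and 1 higher of 21, or 10 and 0 with the correction and 11 and 1 with the transcript length (medians -0.53, -0.41 and -0.4). Beside EGLN3, EGLN1 fell by 1.41 ± 0.22, DDIT4 by 2.38 ± 0.30 and BNIP3L by 1.00 ± 0.13.

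Genes of mitosis were mostly lower in OE. Among 46 of them 4 rose and 24 fell (median -0.44), and with the correction 3 rose and 29 fell, or 19 without KO replicate 3, with a median of -0.46. With the transcript length 5 rose and 26 fell. MKI67, the proliferation antigen, was at 127, 158 and 169 CPM in KO and at 43.1, 23.0 and 35.5 CPM in OE (-2.15 ± 0.31, edgeR adjusted p = 6e-05; length-corrected -1.72). WT was at 233, 94.5 and 303 CPM, a wide spread that reached below KO in replicate 2. FOXM1, a transcription factor of the G2 phase, fell by 1.18 ± 0.15, CENPF by 1.99 ± 0.27, BUB1B by 1.00 ± 0.14, INCENP by 1.18 ± 0.19 and KIF23 by 0.78 ± 0.12. CCNB1, the mitotic cyclin, rose from 292, 315 and 307 CPM to 530, 572 and 519 CPM (0.83 ± 0.11; length-corrected 0.55), and PTTG1, which encodes securin and lies in the shifted end of chromosome 5, rose by 1.44 ± 0.13. In DNA replication 12 of 45 fell and 2 rose (17 and 2 with the correction, 12 and 1 with the transcript length; medians -0.15, -0.22 and -0.19), among the falls UHRF1 (-1.03 ± 0.15), the chromatin assembly factor subunit CHAF1A (-0.84 ± 0.13) and RFC1 (-1.37 ± 0.15). In bulk RNA fewer cells in a phase and less RNA per cell cannot be told apart.

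Chaperones and secretory genes of the endoplasmic reticulum, where the lyase resides, leaned higher. Of 32 genes of the unfolded protein response 15 rose and 4 fell (16 and 5 with the correction, 19 and 2 with the transcript length; medians 0.23, 0.28 and 0.36). Leaving out 1 library brought the uncorrected falls to 2 (OE replicate 2 or 3) and the corrected ones to between 1 and 3 (any KO library or OE replicate 1 or 3). HSPA5, the main chaperone of the lumen, was at 823, 804 and 871 CPM in KO and at 1512, 1725 and 1587 CPM in OE (0.95 ± 0.10, edgeR adjusted p = 2.46e-06; length-corrected 0.84), above WT at 1157 to 1247 CPM. SDF2L1 rose by 1.83 ± 0.18 and SEC61B, a subunit of the translocation channel, by 1.24 ± 0.14. CANX rose by 0.88 ± 0.10 and lies in the shifted end of chromosome 5. ATF6, a sensor of this response, fell by 0.68 ± 0.11, a call lost with transcript length. Lysosomal genes rose in 15 of 41 and fell in 3 (17 and 5 with the correction, 13 and 4 with the transcript length). Their medians were 0.18, 0.20 and 0.04. The corrected 5 falls became 2 or 3 without WT replicate 1, KO replicate 2 or 3, or OE replicate 2 or 3. LAPTM4B, a lysosomal membrane protein, was at 194, 202 and 203 CPM in KO, at 466, 510 and 502 CPM in OE and at 132 to 148 CPM in WT (1.30 ± 0.10; length-corrected 1.11). The tetraspanin CD63 rose by 1.502 ± 0.162 and the proteases CTSB and CTSL by 1.07 ± 0.11 and 0.99 ± 0.12 (length-corrected 0.65 for CTSL).

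Matrix, adhesion and signalling genes held more falls than rises, and part of that leaned on length. Of 44 matrix genes 7 rose and 20 fell, with a median of -0.33, and with the correction 8 rose and 14 fell, with a median of -0.12. FBN2, a fibrillin of 13218 bases, was at 92.3, 104 and 117 CPM in KO and at 29.03, 17.6 and 25.6 CPM in OE (-2.11 ± 0.21, edgeR adjusted p = 2.36e-06; length-corrected -1.66). FBN1 fell by 2.10 ± 0.24 and COL11A1 by 1.68 ± 0.19, while SERPINE2, a protease inhibitor, rose by 2.68 ± 0.26. Adhesion genes had 9 higher and 18 lower of 37 (11 and 14 with the correction; medians -0.46 and -0.13), with the integrin ITGB5 up from 27.8 to 29.3 CPM in KO to 88.3 to 91.7 CPM in OE (1.67 ± 0.13) and the cadherin CDH12 down by 1.60 ± 0.16.

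Of 43 genes of cAMP and calcium signalling 5 rose and 18 fell (9 and 12 with the correction; medians -0.34 and -0.24). ITPR1, the calcium release channel of the endoplasmic reticulum, was at 43.8, 58.8 and 64.6 CPM in KO and at 6.49, 4.56 and 6.68 CPM in OE (-3.22 ± 0.22, edgeR adjusted p = 4.09e-08). At 32454 bases it is among the longest genes, and the length-corrected change was -2.59 ± 0.17. The calcium pump ATP2B1 fell by 1.37 ± 0.17 and the phosphodiesterase PDE4D by 1.12 ± 0.16 (length-corrected -0.61). ATP1B1, a subunit of the sodium pump in the shifted stretch of chromosome 1, fell by 2.20 ± 0.13. Among Wnt genes 12 of 37 fell and 4 rose (12 and 5 with the correction; medians -0.29 and -0.31; the rises became 2 without KO replicate 1 or 2 and, corrected, 3 without KO replicate 2 or 3), with LGR5 down by 1.93 ± 0.22 and NOTUM, a secreted Wnt inhibitor, by 1.25 ± 0.20.

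The remaining lists were close to the background or split. Antioxidant and iron genes had 12 higher and 10 lower of 34 (10 and 9 with the correction). TXN, which encodes thioredoxin, rose by 1.29 ± 0.15, and the transferrin receptor TFRC fell by 0.96 ± 0.12. ATF4 targets had 10 higher and 6 lower of 34 (8 and 8). The 10 became 4, 3, 4 and 6 without KO replicate 2, KO replicate 3, OE replicate 2 and OE replicate 3, and the corrected 8 higher became 5 without OE replicate 2. MHC class I and peptide loading had 3 and 4 of 19 in both fits, with HLA-E up by 1.43 ± 0.16. Splicing factors had 6 higher and 14 lower of 41 uncorrected and 10 and 6 with the correction on the Length column, but 5 and 14 with the transcript length (median -0.12), close to the uncorrected split. SRRM2 fell by 1.56 ± 0.24 (length-corrected -1.12), and HNRNPU, 22512 bases long, had -0.75 ± 0.13 uncorrected and -0.19 with the correction (adjusted p = 0.11). Potassium and calcium channels had 6 and 9 of 32 (7 and 9 with the correction; 1 higher without KO replicate 3), complement 3 and 6 of 12 (3 and 5), and neural markers 4 and 5 of 18 (5 and 6), with CADPS up by 4.25 ± 0.38 and BRSK2 by 4.94 ± 0.53. Among the neural markers that fell were UTS2, named above, and GAP43, a protein of growing axons, at 22.5, 19.1 and 19.1 CPM in KO and at 6.05, 8.57 and 8.84 CPM in OE (-1.37 ± 0.22, edgeR adjusted p = 0.000187; length-corrected -1.70).

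A few list members were called in only 1 of the fits with a wide gap between them, beside S1PR3 and CERT1. TK1, a thymidine kinase, stood at 0.01 on the log2 scale (edgeR adjusted p = 0.969) uncorrected and -0.33 (adjusted p = 0.0188) with the correction. The gene EIF4EBP1, which encodes a repressor of translation initiation, stood at 0.415 (edgeR adjusted p = 0.0433) uncorrected and -0.003 (adjusted p = 0.987) with the correction. For the glycolytic isomerase GPI the values were -0.37 (adjusted p = 0.0148) and 0.003 (adjusted p = 0.99). ATP6V0A1, a subunit of the proton pump, went from 0.001 (adjusted p = 0.997) to 0.39 (adjusted p = 0.0289). EIF4EBP1 also lost its uncorrected call with library totals alone, with limma-voom and without WT replicate 1, KO replicate 2 or 3, or OE replicate 2. GPI lost its call without KO replicate 2, OE replicate 1 or OE replicate 3 as well.

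**Figure D4:**
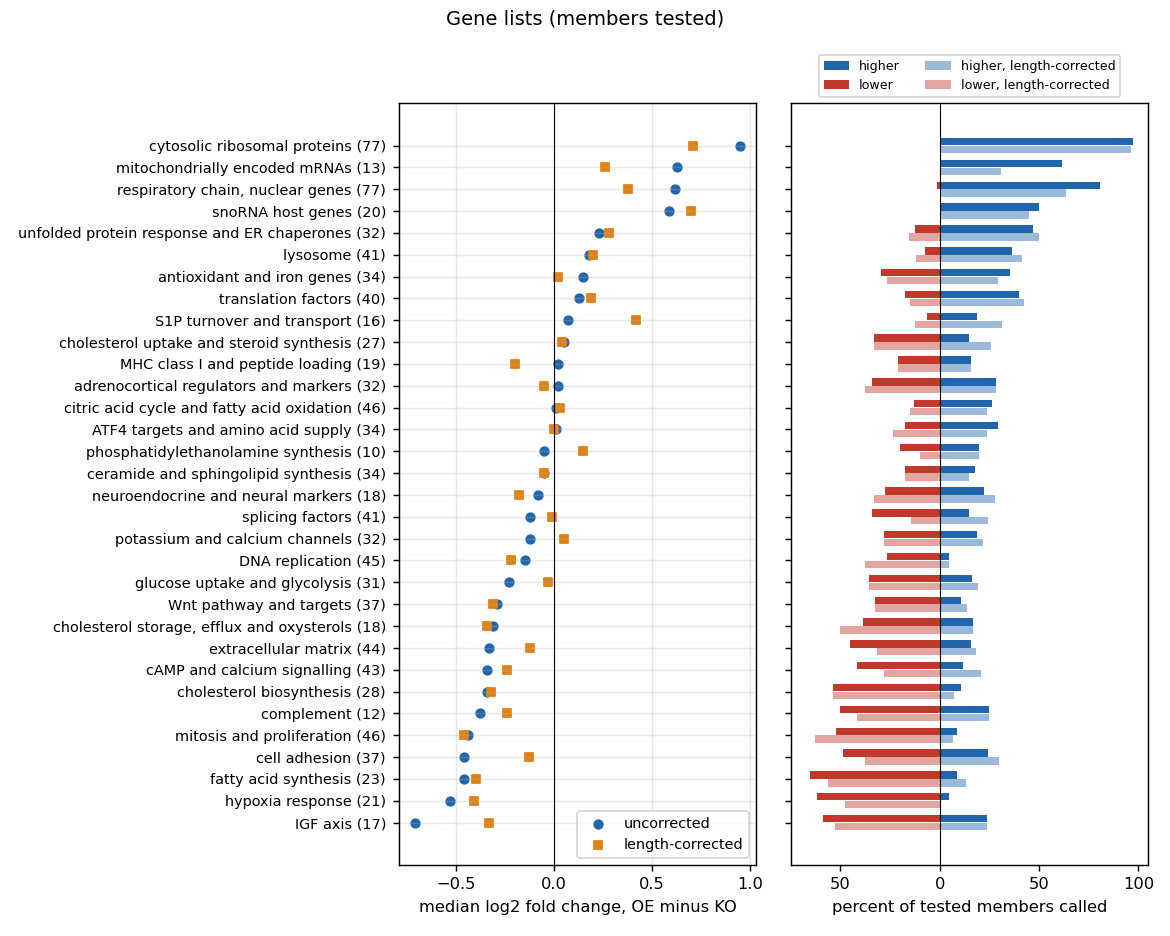
Left, median log2 fold change (OE minus KO) of each gene list with at least 10 members tested, uncorrected (blue circles) and length-corrected (orange squares). Right, percent of its tested members called higher (blue, to the right) and lower (red, to the left), with the length-corrected fit in pale bars; ribosomal protein genes are at the top and the IGF axis at the bottom.

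Some of the shifted genes lay together in stretches of the chromosomes. Along each chromosome a running median over 51 neighbouring genes passed 0.4 in either direction in 10 blocks of at least 20 genes, together 698 genes, 4.93% of all. They contained 442 called genes, 7.88% of the calls. With shorter stretches included, such genes numbered 792 (5.6%), of which 487 were called (8.68% of the calls). The block with the largest shift was the end of chromosome 5 (chr5:151770242-181272307), where 113 of 129 genes were higher in OE and 91 were called higher, with a median of 0.92. Its median relative to the WT mean was -0.92, -0.94 and -0.91 in the KO libraries and 0.04, 0.04 and 0.03 in OE. On chromosome 20 (chr20:270863-21755350) 93 of 106 genes were higher, with a median of 0.66, and on chromosome X (chrX:149581653-156025710) 69 of 85, with a median of 0.64. On chromosome 1 (chr1:162497251-185317273) 82 of 97 genes were lower, with a median of -0.71. The length correction left these medians at 0.89, 0.63, 0.42 and -0.63. All these counts, shares and medians come from the fold changes that picked the blocks, so they describe the blocks and are no test. The number of blocks to expect without a link to position was not estimated.

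In the plot of block medians by library, KO stands off in every block and OE lies near WT in most. On chromosome 12 (chr12:6913745-9658412, 34 genes, median -0.65) both were off, with KO at 0.23 to 0.30 and OE at -0.25 to -0.20 relative to WT. Of the genes described above, SOAT1 and ATP1B1 lie in the chromosome 1 block. MARVELD2, C7, CDH12, CANX and PTTG1 lie in blocks on chromosome 5. CYP19A1 and FBN1 lie in the block on chromosome 15 and RPL10 in that on chromosome X. RFC1 lies in the block on chromosome 4, SNHG7 in that on chromosome 9 and SLC2A3 in that on chromosome 12. Outside all 792 of these genes the ribosomal protein list had 71 rises and no fall, cholesterol biosynthesis 2 rises and 14 falls, mitosis 2 and 23, and steroid synthesis 4 and 7. Complement had 3 rises and 3 falls there, with a median of 0.06, against -0.38 for all 12 members tested. The number of copies of these stretches was not measured here.

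**Figure D5:**
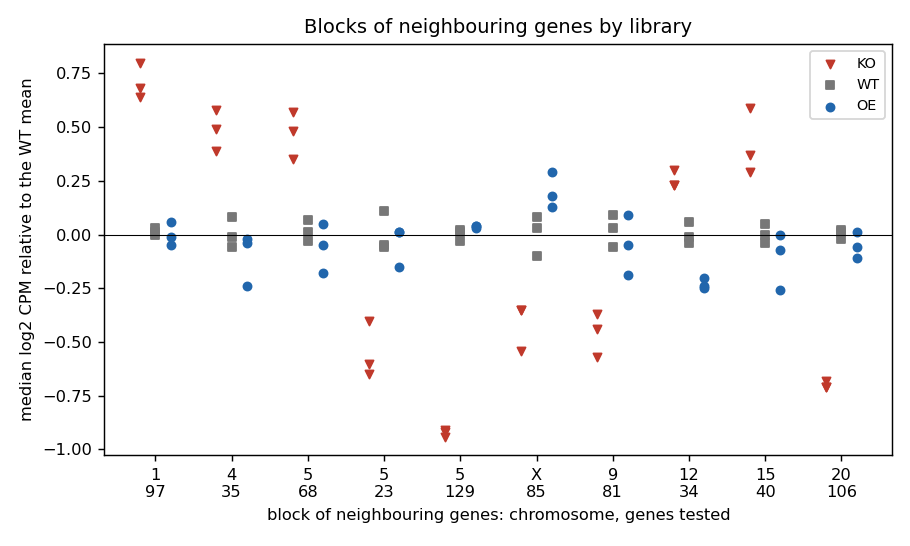
Median log2 CPM relative to the WT mean (vertical axis) of the genes in each of the 10 blocks (horizontal axis: chromosome and number of genes tested), 1 point per library, with KO as red triangles, WT as grey squares and OE as blue circles. The KO points lie away from 0 in every block, down to -0.94 in the block of 129 genes on chromosome 5, and OE points lie closer to 0 in most.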

How the data were processed

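The deposited values are raw counts of reads for each gene, in 1 table for each library. Per the file headers the counter was featureCounts 1.5.2, the annotation was Ensembl 101 (GRCh38), and no option for strand or multiply mapped reads was set. Reads with several positions or several genes are then left out, which lowers genes with close copies or with overlapping or antisense partners. The submitters' processing notes name HISAT2 1.03 and DESeq2 and give featureCounts as 0.1.0, which differs from the header.

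From the counts, all 9 libraries were fitted with the group as the only term by edgeR 4.0.16 under R 4.3.3, with its quasi-likelihood test (TMM library scaling, the filterByExpr filter at 10 counts, Benjamini-Hochberg adjustment over 14150 genes, threshold 0.05). Every adjusted p is from this test. CPM is relative to the TMM-scaled total. The length-corrected fit added as an offset, per library, a lowess curve (span 0.3) of relative log2 CPM on log2 Length. Across genes the standard error of the log2 fold changes had a median of 0.187. Libraries of 1 group differed beyond sampling noise (chi-square per degree of freedom 4.48 to 17.8).

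The comparison, the members and the gene lists were chosen with earlier results of these data known. The text names SGPL1, the 12 largest rises and 12 largest falls (protein-coding, called in both fits, at least 5 CPM in the higher group, no overlap), up to 5 members per list, by smallest adjusted p (up to 8 for the S1P, steroid, adrenocortical, cholesterol synthesis, glycolysis and mitosis lists), and 6 list members whose adjusted p differs most between the fits. Some genes that the rule selects are not reported here. A ratio against 1 to 3 counts has a 95% counting interval. The fits were tested on simulated data. Alternatives used DESeq2 1.42.0 and limma 3.58.1.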

Additional observations from a re-analysis of the deposited data

How the results depend on the processing

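The counts of higher and lower genes stayed within 1.5 times of the reported ones, uncorrected and length-corrected, under every alternative run for each: scaling, filters, DESeq2, limma-voom, the OE and KO libraries alone, the block genes left out and, for the corrected counts, other curves and transcript length. With 1 library left out at a time they ran from 2063 to 2921 higher and 2307 to 2982 lower uncorrected, and from 2097 to 2977 higher and 2010 to 2630 lower length-corrected. The slope on length moved from -0.206 to -0.276 with the filter of 50 counts in 3 libraries, and ran from -0.222 to -0.155 with 1 library left out. The share of higher genes among uncorrected calls, 48.0%, was 55.1% with upper-quartile scaling and 41.7% with library totals alone.

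Libraries with the same number in KO and OE showed little shared deviation (correlations -0.14, -0.01 and 0.13). Between WT and the other groups the same-number correlations ran from -0.03 to 0.25. Those between libraries of different number ran from -0.28 to 0.22. So few libraries cannot settle whether the numbers pair them. With a replicate block 2929 genes were higher and 3206 lower, and 2946 and 2885 with the length correction as well.

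Sign changes are given for genes selected by the rule above and called in 1 of the fits compared. With the length correction the sign changed for CERT1 (0.007), GPI (0.003), TK1 (-0.33), EIF4EBP1 (-0.003) and S1PR3 (0.438). With transcript length, an alternative chosen after seeing the data, it changed for SELENOI (0.068), TK1 (-0.281), EIF4EBP1 (-0.003) and S1PR3 (0.514). Here the correction itself moves the value. At this depth and with 3 libraries a group, differences near the median standard error are not detectable.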
